A study of Arabidopsis thaliana with 9 samples.

Results

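The loci described here are annotated pericentromeric loci of Arabidopsis thaliana that carried small RNA while no RNA-seq read was counted on them. A locus was taken if its identifier ended in 0 and its number lay in AT1G36000 to AT1G44000, AT2G04000 to AT2G15000, AT3G28500 to AT3G45000, AT4G03300 to AT4G09000 or AT5G26600 to AT5G37000. Beyond position, loci were chosen by measured counts: 0 counts in all 3 dxo1-2 RNA-seq libraries and a mean of at least 50 raw counts over the 6 small RNA libraries. Silence in RNA-seq and small RNA level are therefore properties of the choice and not results. The tables list 37184 loci, of which 3021 lay in those ranges with an identifier ending in 0. Of these, 1810 (59.9%) had no RNA-seq count and 1526 reached the small RNA threshold, and 1242 met both conditions. Chromosome 1 held 224 of them, chromosome 2 held 463, chromosome 3 held 236, chromosome 4 held 159 and chromosome 5 held 160.

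Small RNA was sequenced from wild-type Col-0 plants and from dxo1-2, a mutant allele of DXO1, which encodes a DXO-type protein acting at the 5′ end of RNA. There were 3 libraries of each genotype, described as biological replicates, and 3 dxo1-2 libraries of total RNA from which ribosomal RNA had been depleted, sequenced with strand information. All plants were labelled seedlings aged 21 days. They had been stratified for 2 days at 4 °C and were kept on soil in a day of 16 h light with 8 h dark. Wild-type RNA-seq was not analysed here, so the absence of RNA-seq counts is known for dxo1-2 only.

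Pericentromeric DNA of plants is rich in transposable elements and their remnants and is kept silent by DNA and histone methylation. RNA polymerase IV transcribes such DNA into short precursors, RDR2 makes them double-stranded, and DCL3 cuts them into small interfering RNAs. AGO4 and its relatives carry these to transcripts of RNA polymerase V and bring in the DNA methyltransferase DRM2. Deep in pericentromeric heterochromatin, methylation also rests on the remodeller DDM1 and on MET1, CMT2 and CMT3, and it is maintained there with less need of small RNA.

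Counts on annotated loci ranged from 3976221 to 4393015 per Col-0 small RNA library, from 5022945 to 5698185 per dxo1-2 small RNA library and from 60138933 to 71210737 per RNA-seq library. Small RNA read lengths are not part of the tables. In RNA-seq, 9.88% to 11.0% of the lines of a table were reads with several matches, which were listed apart from the loci, and repeated loci can lose reads that way; its part in the zero counts was not tested. A summed RNA-seq count of 0 allows up to 0.0153 counts per 1000000 (3 counts over the 3 libraries, counting error only). In the small RNA tables the line for reads with several matches held 0, and how such reads were treated is not stated. A count on 1 repeat copy may thus include reads of another copy. Leaf marker genes (RBCS1A, CAB2, CA1 and RCA) summed to 7639 to 9059 CPM (counts per 1000000 counts on loci) in the RNA-seq libraries. The 3 seed markers summed to 0.0665 to 0.109 CPM, the 3 root markers to 0.0310 to 0.133 CPM and the 5 flower markers to 0.599 to 1.13 CPM, and the root marker EXP7, the floral marker AP1, both pollen markers and the senescence marker SAG12 had 0 counts. In these dxo1-2 RNA-seq libraries the label seedling thus stands for leaf-rich material with hardly any root RNA, and the tissue behind the small RNA libraries was not measured. In such bulk material fewer cells that make a small RNA and less small RNA per cell cannot be told apart.

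Most of the 1242 loci were annotated as pseudogenes (1022, or 82.3%), a class in which the RefSeq table may also place transposable element genes. Another 180 were protein-coding, 34 were transcribed pseudogenes, 3 were long non-coding RNA genes, 2 were small nucleolar RNA genes and 1 was a tRNA gene. Counts, which the rule used and which are not divided by length, ran from a mean of 50.5 to 13986 per library, with a median of 303 and quartiles of 141 and 639. The 3 loci with most counts held 6.20% of all counts on the set, and the top 100 held 35.7%. Every locus had counts in every small RNA library, the lowest being 19. At the threshold, AT3G31350, AT2G10720 and AT2G11460 lay just inside with means of 50.5, 50.7 and 50.8 counts, and AT3G42550, AT2G06620 and AT1G38390 lay just outside with 48.7, 48.5 and 48.3. Counts of 14 loci matched another locus within 1% or 1 count in all 6 libraries and may share reads, and 22 loci overlapped another annotated locus.

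The 3 loci with the highest counts were pseudogenes. AT3G43730 stood at 3148, 3168 and 3224 CPM in the Col-0 libraries and at 2722, 2874 and 2753 CPM in dxo1-2. AT1G43740 stood at 2846, 3042 and 2976 CPM in Col-0 and 2749, 2742 and 2834 CPM in dxo1-2. Its neighbour AT1G43750 stood at 2738, 2888 and 2829 CPM in Col-0 and 2617, 2680 and 2711 CPM in dxo1-2. In each of them every dxo1-2 library lay below every Col-0 library, but by little, and the fitted change passed the test for AT3G43730 alone (log2 fold change -0.19 ± 0.070, edgeR adjusted p = 0.0367). That call was lost with a count filter at a mean of 10 (adjusted p = 0.0520), with thinned counts (0.0528) and without dxo1-2 replicate 1, 2 or 3 (0.120, 0.0735 and 0.139). With library totals as the scale the log2 fold change was 0.14 (0.306), and with every line of a table counted in the total it was 0.38 (0.000788). The log2 fold change was -0.09 ± 0.070 for AT1G43740 (adjusted p = 0.304) and -0.08 ± 0.069 for AT1G43750 (0.367), and both passed with TMM from protein-coding genes (0.0426 and 0.0492). Here and below the ± after a log2 fold change (dxo1-2 over Col-0) is a standard error (SE), and CPM were scaled by TMM, which sets libraries level on the bulk of tested loci.

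Most leading loci of the other chromosomes differed as little, and all but AT3G44580 and AT4G06560 changed direction with library totals or with every line counted. On chromosome 2, AT2G07150 had 1286, 1058 and 1057 CPM in Col-0 and 1033, 956 and 982 CPM in dxo1-2, and AT2G06470 had 1020, 1041 and 975 CPM against 934, 938 and 920 CPM. Neither passed the test (adjusted p = 0.0754 and 0.144, log2 fold changes -0.19 ± 0.085 and -0.12 ± 0.065). Both passed with limma-voom (adjusted p = 0.0394 and 0.0383), with TMM from protein-coding genes (0.00910 and 0.0168) and without Col-0 replicate 3 (0.0121 and 0.0291), and AT2G07150 also without Col-0 replicate 2 (0.0346). On chromosome 4, AT4G03840 had 818, 829 and 776 CPM in Col-0 against 734, 724 and 724 CPM in dxo1-2 (-0.15 ± 0.065, adjusted p = 0.0701). It passed in the same 3 alternatives (adjusted p = 0.0178, 0.00887 and 0.0125). AT4G06560 went the other way, from 541, 573 and 545 CPM to 681, 650 and 635 CPM, and passed (0.25 ± 0.066, adjusted p = 0.00861), a call lost with TMM from protein-coding genes (0.095, adjusted p = 0.376). On chromosome 5, AT5G27190 overlapped between genotypes, at 469, 468 and 441 CPM against 466, 442 and 443 CPM, and AT5G28760 had 398, 408 and 390 CPM against 359, 385 and 370 CPM (adjusted p = 0.738 and 0.200, the latter 0.0175 with TMM from protein-coding genes). The second locus of chromosome 3, the protein-coding AT3G44580, was uneven in Col-0 at 2251, 1453 and 1460 CPM and stood at 1101, 1194 and 1168 CPM in dxo1-2 (-0.58 ± 0.14, adjusted p = 0.00468). Without the high Col-0 replicate 1 its log2 fold change was -0.36, and the change was lost with library totals as the scale (-0.24, adjusted p = 0.176) and with every line counted (-0.0012, adjusted p = 0.994).

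With TMM scaling, a smaller share of silent pericentromeric loci than of tested loci at large passed the test between dxo1-2 and Col-0, an order that turned when every line of a table was counted in the library size (74.9% against 63.6%). In edgeR's quasi-likelihood test across the whole table, with Benjamini-Hochberg adjustment at 0.05, 117 of the 1242 loci were higher and 329 lower in dxo1-2. All 1242 passed the expression filter. The 446 called loci are 35.9%, against 49.8% of all 11534 tested loci and 51.0% of the 6046 tested loci with a mean of at least 50 counts. By direction, 9.42% were higher and 26.5% lower, where all tested loci gave 26.8% and 23.0%, and those with at least 50 counts gave 15.2% and 35.8%. The sizes differed more than the counts. Only 3 loci rose and 14 fell past 2-fold, 1.37% of the set, against 27.7% of all tested loci and 12.6% of those with at least 50 counts. The groups did not overlap at 204 loci that were higher and 429 that were lower in dxo1-2, 51.0% of the set, against 58.1% of all tested loci and 59.3% of those with at least 50 counts. Without a count filter 28.3% of the set and 20.1% of all loci then tested were called, against 46.1% of those with at least 50 counts. These shares were not tested against each other, and loci with fewer counts give larger fitted changes.

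The direction of the set depended on how libraries were scaled, and its place among other loci depended on which loci it was set against. The median log2 fold change of the set was -0.10 with TMM, with quartiles of -0.29 and 0.10, while the median of all tested loci was -0.019. Library totals alone moved these medians to 0.23 and 0.32. Counting every line, those of reads on no locus included, moved them to 0.47 and 0.55. TMM computed from protein-coding genes gave -0.25 and -0.17. The number of loci called higher and lower moved with them, to 474 and 38 with library totals, to 912 and 18 with all lines and to 35 and 545 with TMM from protein-coding genes. The share of calls that were higher was thus 26.2% with TMM, 92.6% with library totals, 98.1% with all lines and 6.03% with TMM from protein-coding genes. The median of the set lay 0.080 above that of the 4804 other tested loci with at least 50 counts (-0.18 with TMM), and between 0.072 and 0.093 above it over 17 alternative fits. A change of scaling moves all loci nearly alike, so such distances could hardly change with it. Against all tested loci, which include those of fewer counts, the distance had the opposite sign, -0.086 with TMM and between -0.087 and -0.085 under these other scalings. It was -0.19 without Col-0 replicate 3, and -0.36 without a count filter, where many loci of very few counts enter the comparison.

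**Figure D1:**
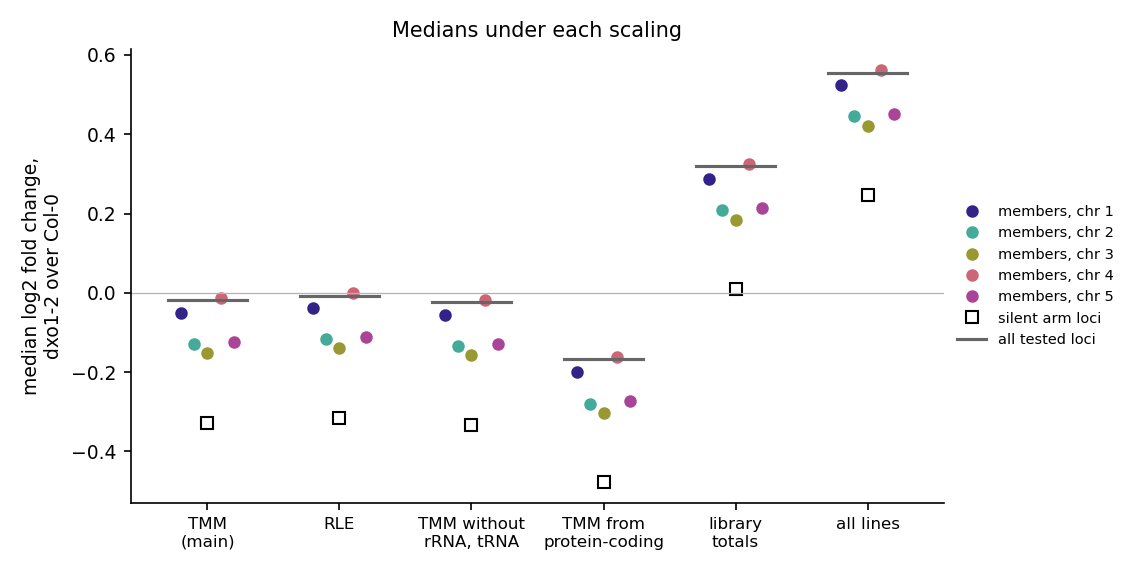
Median log2 fold change (dxo1-2 over Col-0, vertical axis) of silent pericentromeric loci on each chromosome (coloured points), of silent arm loci (open squares) and of all tested loci (grey bars) under 6 ways of scaling the libraries (horizontal axis). All medians shift together, from -0.25 for the whole pericentromeric set with TMM from protein-coding genes to 0.47 with all lines. The silent arm loci lie below the pericentromeric ones under every scaling shown, an order that a change of scaling leaves in place.

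As a share of counts the set was larger in dxo1-2. It held 12.9%, 13.1% and 11.6% of the counts on loci in the Col-0 libraries and 15.3%, 14.1% and 15.2% in dxo1-2, a mean of 12.5% ± 0.830 against 14.9% ± 0.633 (SD, n = 3 each). The groups did not overlap. The share taken by rRNA genes moved with this: it was 20.5%, 20.1% and 28.8% in Col-0 and 15.2%, 20.8% and 14.5% in dxo1-2, and tRNA genes took 6.21% to 7.22% and 3.74% to 4.51%. Without rRNA and tRNA genes in the total, the set held 17.7%, 18.0% and 17.8% in Col-0 and 18.9%, 18.9% and 18.6% in dxo1-2. Between the means, the difference then shrank from 2.34 to 0.955 percentage points, still without overlap. Of all lines of the table, reads without an annotated feature included, the set held 2.84% ± 0.0888 in Col-0 and 4.00% ± 0.0962 in dxo1-2. Without Col-0 replicate 3, the library with the highest rRNA share, the difference as a share of counts on loci was 1.87 percentage points.

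**Figure D2:**
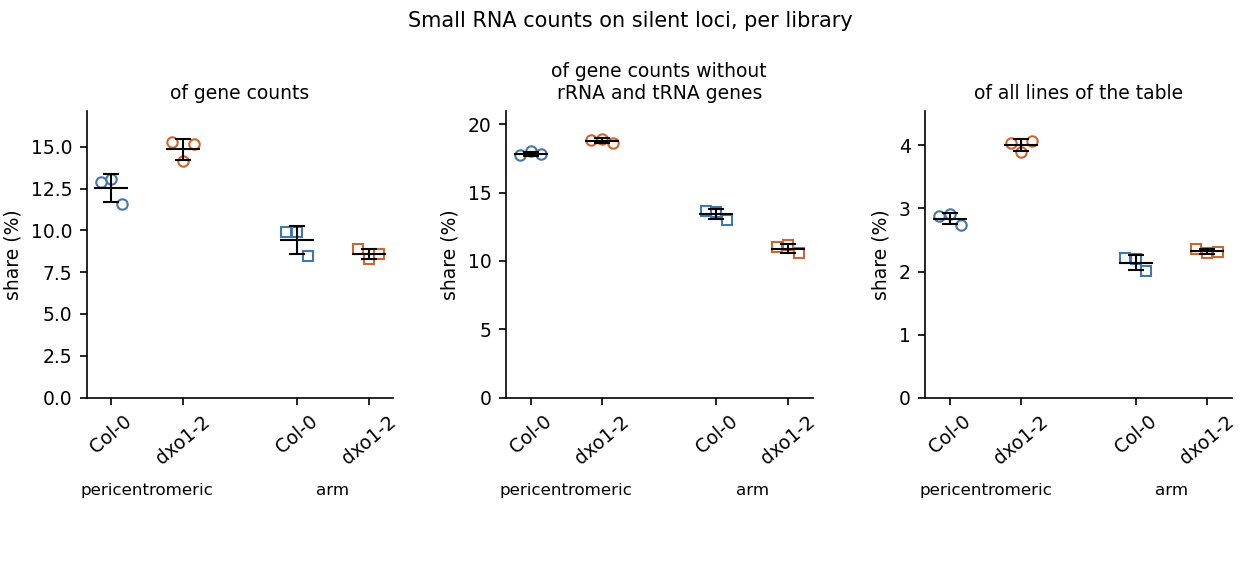
Share of small RNA counts (%) on silent pericentromeric loci (circles) and silent arm loci (squares) in each Col-0 (blue) and dxo1-2 (orange) library, with the mean and SD of 3 libraries as black bars, for 3 denominators. The pericentromeric share is higher in all dxo1-2 libraries for every denominator, while the arm share overlaps between genotypes for counts on loci, is lower in dxo1-2 once rRNA and tRNA genes are left out and is higher in dxo1-2 as a share of all lines (2.14% against 2.32%).

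Silent loci on the chromosome arms, taken by the same rule outside the ranges, had lower medians than the pericentromeric ones. Of 592 arm loci 13 (2.2%) were higher and 328 (55.4%) lower in dxo1-2 with TMM, 57.6% in all, and 12.0% passed 2-fold. Groups did not overlap at 57.9% of them. Tested loci with at least 50 counts gave 15.2% higher, 35.8% lower, 51.0% in all, 12.6% past 2-fold and 59.3% without overlap. The arm shares past 2-fold and without overlap were thus near those of tested loci. The arm median log2 fold change was -0.33, against -0.10 for the pericentromeric set. It turned to 0.010 with library totals (56 higher, 115 lower) and 0.25 with all lines (247 higher, 70 lower). The pericentromeric median lay 0.22 above the arm median in edgeR with TMM, and between 0.21 and 0.27 over 17 alternative fits. A change of scaling moves both medians alike and cancels in the difference, so the fits with other scalings are no test of it. The ratio of summed counts within a library, into which no scaling enters, gave the same order. There were 1.30, 1.32 and 1.37 pericentromeric counts per arm count in the Col-0 libraries and 1.72, 1.70 and 1.77 in dxo1-2, a mean of 1.33 ± 0.0354 against 1.73 ± 0.0353 (SD, n = 3 each). All dxo1-2 libraries lay above all Col-0 libraries, by a factor of 1.30 on average, and by 1.30 without the 3 loci with most counts. Arm loci were of another make-up, with 44.4% pseudogenes and 42.4% protein-coding genes. Among pseudogenes alone the medians were -0.24 on the arms and -0.086 in the pericentromeric set, and among protein-coding genes -0.49 and -0.23. The shares past 2-fold were 0.76% and 0.489% among pseudogenes, and 21.9% and 5.56% among protein-coding genes. The share of 12.0% on the arms thus came mostly from protein-coding loci. These medians and shares were compared as descriptions, without a test.

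Chromosome 4 had the highest median among the chromosomes. With TMM its 159 loci gave 32 higher and 31 lower calls and a median log2 fold change of -0.013. That balance rested on the scaling, with 81 higher and 3 lower under library totals, 135 and 0 under all lines, 8 and 57 under TMM from protein-coding genes, and 25 and 44 without Col-0 replicate 3. On chromosome 2, 25 of 463 loci were higher and 141 lower, with a median of -0.13. Chromosome 3 had 22 higher and 70 lower of 236 (median -0.15), chromosome 5 had 18 and 45 of 160 (-0.12), and chromosome 1 had 20 and 42 of 224 (-0.051). As percentages called, chromosome 1 was lowest at 27.7%, and the others lay between 35.9% and 39.6%. All lay below the 49.8% of all tested loci and the 51.0% of those with at least 50 counts. Lower calls made up 18.8% to 30.5% of a chromosome's loci and higher calls 5.40% to 20.1%. Tested loci with at least 50 counts gave 35.8% and 15.2%. Past 2-fold, chromosome 4 had 0 loci, chromosomes 1, 2, 3 and 5 had 2, 6, 6 and 3. That is at most 2.54% of a chromosome's loci, against 12.6% of tested loci with at least 50 counts. All 5 medians turned positive with library totals (0.18 to 0.33) and with all lines (0.42 to 0.56). Chromosome 4 was highest and chromosome 3 lowest each time, an order that a change of scaling leaves in place. Silent arm loci had the same extremes with TMM, with medians of -0.29 on chromosome 4 and -0.43 on chromosome 3. These extremes are therefore not particular to the pericentromeric set.

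**Figure D3:**
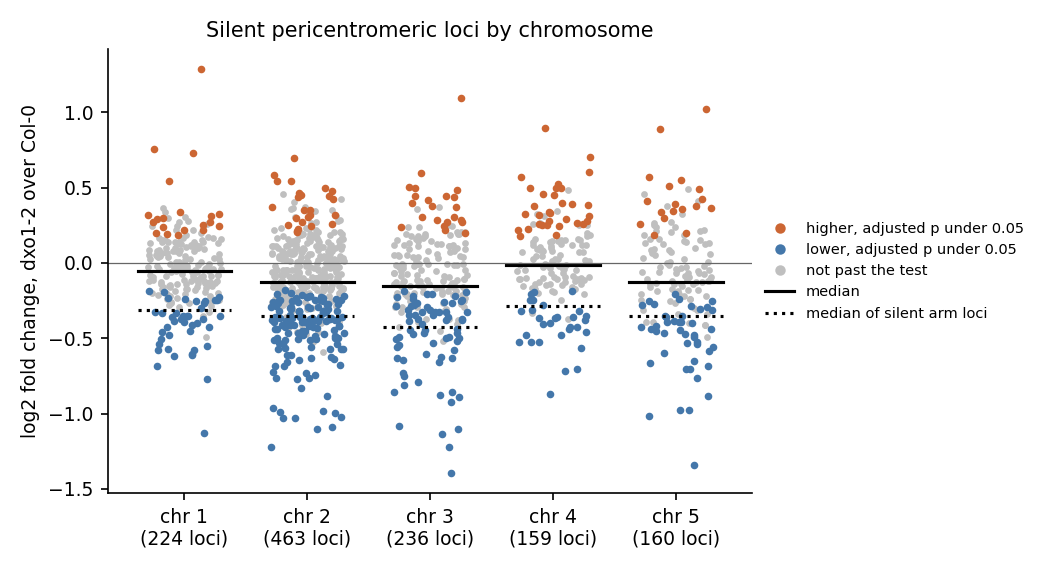
Log2 fold change (dxo1-2 over Col-0, TMM scaling) of each silent pericentromeric locus by chromosome, with loci called higher in orange, called lower in blue and not past the test in grey; solid lines are the medians and dotted lines the medians of silent arm loci of the same chromosome. The median runs from -0.15 on chromosome 3 to -0.013 on chromosome 4, and on each chromosome the arm median is lower.

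The chromosomes were also compared within a library, as the summed counts of 1 chromosome's loci over those of the other 4. For chromosome 4 the ratio was 0.181, 0.181 and 0.179 in Col-0 and 0.193, 0.192 and 0.192 in dxo1-2, a mean higher by a factor of 1.07. For chromosome 3 it was 0.202, 0.196 and 0.200 in Col-0 and 0.187, 0.190 and 0.188 in dxo1-2, a factor of 0.946. The factor was 1.04 for chromosome 1 and 0.970 for chromosome 2, and for chromosome 5 the means were 0.111 ± 0.00153 and 0.110 ± 0.000384. In each case the groups did not overlap, and the ratios depend on each other because they share their counts. The median of chromosome 4 loci lay 0.11 above that of the other loci, and between 0.099 and 0.13 over the 17 alternative fits. A change of scaling cancels in this difference. Counts of calls on single chromosomes were less steady. Higher calls on chromosome 1 numbered 12, 13, 9, 12 and 11 without Col-0 replicate 1, 2 or 3 or dxo1-2 replicate 2 or 3, on chromosome 2 they numbered 16 without Col-0 replicate 1, and on chromosome 3 they numbered 12, 14, 14 and 12 without Col-0 replicate 1 or 2 or dxo1-2 replicate 2 or 3. Lower calls on chromosome 2 numbered 91 without dxo1-2 replicate 3.

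On chromosomes 1, 2 and 3, the lowest medians among blocks of loci ordered by identifier lay at or near an end of the range. Identifiers were grouped in blocks of 1000 numbers, and blocks of at least 20 loci were read. For comparison, 35.8% of tested loci with at least 50 counts were lower and 15.2% higher. Of all tested loci, 23.0% were lower and 26.8% higher. Block counts were not tested against these shares. On chromosome 2 the median was -0.30 in the block from AT2G04000 (13 of 23 lower, 1 higher) and -0.25 in that from AT2G14000 (20 of 45 lower, 1 higher), and it was -0.039 in the block from AT2G11000 (9 lower and 8 higher of 54). On chromosome 3 it was -0.32 from AT3G29000 (10 lower and 1 higher of 20), -0.052 from AT3G32000 and -0.19 from AT3G43000. On chromosome 1 the last block, from AT1G43000, had 17 lower and 0 higher of 38 and a median of -0.20, against -0.0037 in the block before it. On chromosome 5 only 3 blocks held 20 loci, the last 2 of them at its end, so an order along it cannot be read. Its last block, from AT5G36000, had the lowest median of the blocks read (-0.35, 13 lower and 1 higher of 26). Not every end was low: the first blocks of chromosomes 1 and 4 had medians of -0.085 and -0.023. The highest median was that from AT4G07000, 0.084, with 11 higher and 5 lower of 45. Each block's distance from the median of the whole set kept its sign without any 1 library for the blocks from AT2G04000 (-0.26 to -0.16), AT2G14000 (-0.20 to -0.12), AT3G29000 (-0.32 to -0.19), AT5G36000 (-0.25 to -0.16) and AT4G07000 (0.17 to 0.20). The blocks from AT1G43000, AT3G43000 and AT5G36000 held a larger share of protein-coding loci (31.6%, 37.2% and 42.3%) than the whole set (14.5%). So did the block from AT3G29000. Those from AT2G04000 and AT2G14000 held 8.70% and 13.3%, and that from AT3G32000 held 33.3% at a median of -0.052. The part of these shares in the block medians was not tested.

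**Figure D4:**
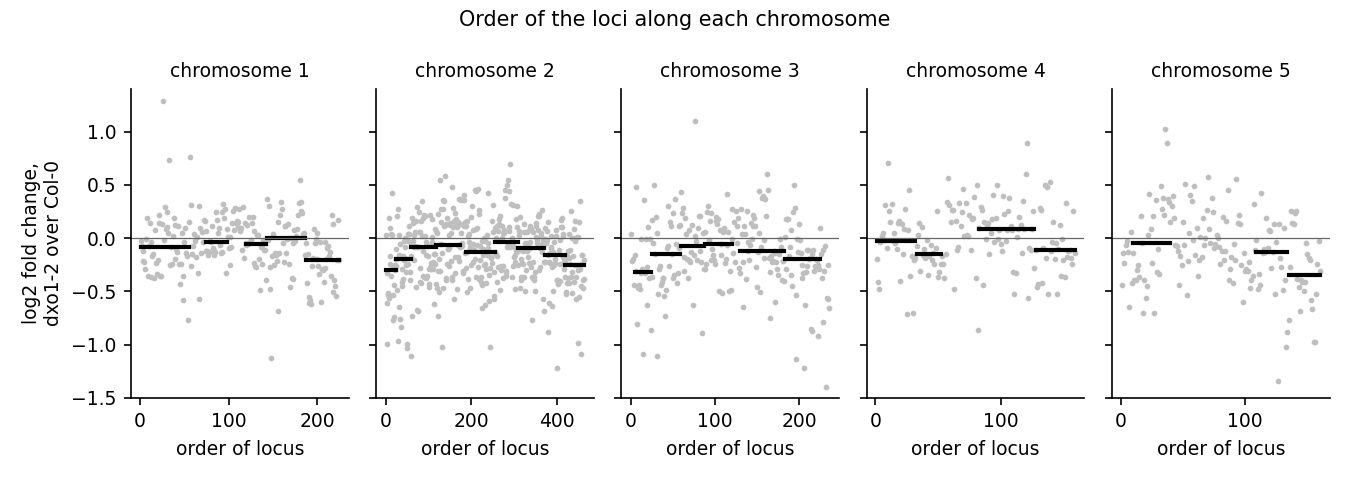
Log2 fold change (dxo1-2 over Col-0, TMM scaling, vertical axis) of the silent pericentromeric loci in the order of their identifiers along each chromosome (horizontal axis), with grey points for loci and black bars for the medians of blocks of identifiers that hold at least 20 loci. The bars lie at -0.30 and -0.25 at the ends of chromosome 2, at -0.35 for the last block of chromosome 5, and are highest at 0.084 inside chromosome 4.

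Some adjacent loci were called in the same direction. Over 712 pairs of loci whose numbers differ by 10, Pearson's r of the log2 fold change was 0.328, and 64.3% of pairs had the same sign. In the whole set 63.9% of loci lay below 0. That is a share of single loci and not the agreement of unrelated pairs, which was not computed. These values describe loci, which share libraries and, in repeats, may share reads. Runs of at least 2 adjacent loci called the same way numbered 54 for lower and 15 for higher loci. The longest run of falls was AT2G13450 to AT2G13490, 5 loci with log2 fold changes of -0.43 to -0.39. AT1G43080 to AT1G43110 (-0.62 to -0.55) and AT1G43920 to AT1G43950 (-0.54 to -0.40) were runs of 4, as was AT3G29440 to AT3G29470 (-0.81 to -0.44). The longest run of rises, 4 loci, was AT1G42600 to AT1G42630 (0.22 to 0.55).

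The largest rises were modest in size and came from loci of low to middling counts. The pseudogene AT1G36490 on chromosome 1 stood at 38.8, 41.2 and 47.7 CPM in Col-0 and 95.1, 112 and 105 CPM in dxo1-2, a 2.44-fold rise (log2 fold change 1.28 ± 0.105, edgeR adjusted p = 1.15e-06). AT3G31560, a protein-coding locus with few counts, rose from 7.03, 5.85 and 7.01 CPM to 14.2, 15.7 and 12.6 CPM (2.14-fold, adjusted p = 0.00115). Its raw counts were 25, 22 and 26 in Col-0 and 92, 85 and 72 in dxo1-2, a mean of 53.7. It thus met the count threshold of the rule through its dxo1-2 libraries alone. In both AT1G36490 and AT3G31560, the lowest dxo1-2 library was well above the highest Col-0 library. The adjacent pseudogenes AT5G28930 and AT5G28940 both rose. AT5G28930 went from 36.8, 40.2 and 47.2 CPM to 79.3, 89.6 and 84.3 CPM (2.04-fold, adjusted p = 1.08e-05). AT5G28940 went from 14.3, 22.1 and 18.1 CPM to 29.6, 37.9 and 34.2 CPM (1.86-fold, adjusted p = 0.000952). The remaining large rises were those of the pseudogene AT4G07800, from 21.4 ± 4.09 to 39.9 ± 3.25 CPM (SD, n = 3 each), and of the protein-coding AT1G37000, from 18.3 ± 1.07 to 31.1 ± 4.25 CPM. These 6 rises stayed past the test in all 17 alternative fits.

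Steady rises at higher counts were smaller still. The smallest adjusted p among the rises of chromosome 4 belonged to AT4G03690, which stood at 69.7, 66.0 and 67.7 CPM in Col-0 and 111, 110 and 111 CPM in dxo1-2 (1.63-fold, adjusted p = 1.66e-05). On chromosome 3 it was that of AT3G30190, at 201, 221 and 210 CPM against 286, 306 and 303 CPM (1.41-fold, adjusted p = 9.87e-05). On chromosome 2 it was that of AT2G07570, at 119, 125 and 138 CPM against 175, 181 and 178 CPM (1.395-fold, adjusted p = 0.00028). All 3 are pseudogenes, and their groups lay clear of each other.

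**Figure D5:**
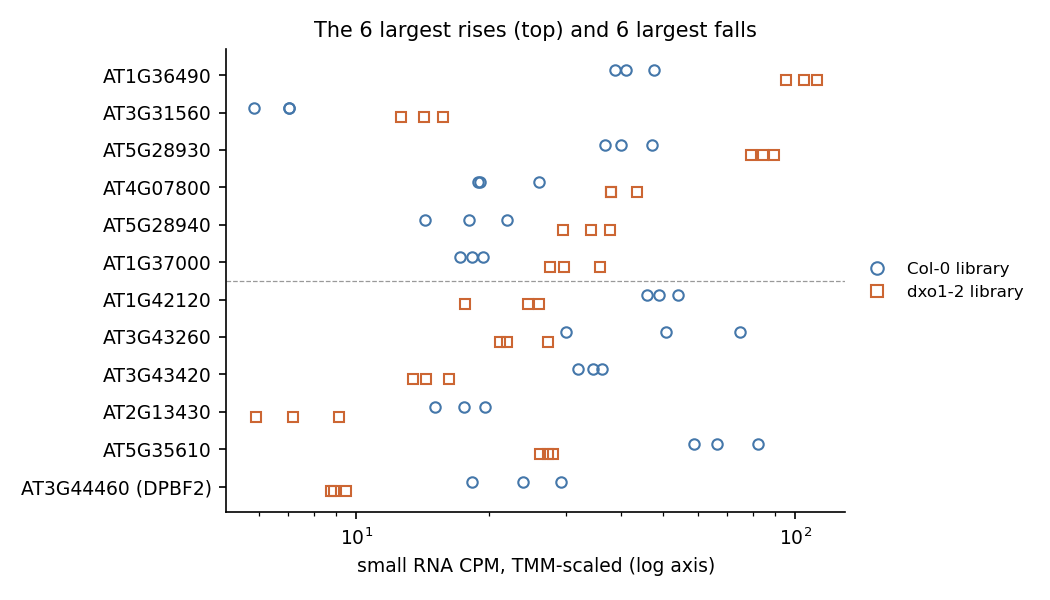
Small RNA level (CPM, TMM-scaled, log axis) in each Col-0 library (blue circles) and dxo1-2 library (orange squares) for the 6 loci with the largest fitted rise (above the dashed line) and the 6 with the largest fitted fall. The groups do not overlap at any of the 12 loci, and the widest spread is that of AT3G43260 in Col-0, from 30.1 to 74.8 CPM.

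The largest falls came mostly from protein-coding loci. DPBF2 (AT3G44460), a basic leucine zipper transcription factor gene known from seeds, stood at 29.2, 23.9 and 18.3 CPM in Col-0 and 9.45, 8.87 and 8.76 CPM in dxo1-2, 2.63-fold lower (log2 fold change -1.40 ± 0.20, adjusted p = 0.000124). AT5G35610 fell from 82.1, 58.8 and 66.3 CPM to 27.2, 26.2 and 28.0 CPM (2.54-fold lower, adjusted p = 4.68e-06). AT3G43420 fell from 36.3, 31.9 and 34.5 CPM to 13.5, 16.3 and 14.4 CPM (2.33-fold lower, adjusted p = 2.5e-05). The dxo1-2 libraries lay close together at each of these loci, below all Col-0 libraries. AT2G13430, which overlaps another locus, fell from 17.5 ± 2.29 to 7.41 ± 1.62 CPM (SD, n = 3 each). Its raw counts were 70, 66 and 56 in Col-0 and 59, 32 and 41 in dxo1-2. Their mean of 54.0 was near the count threshold of the rule, which the dxo1-2 libraries alone would not have met. AT2G13430 thus entered the set through its Col-0 libraries, where it is higher, and nothing is read from its fall. AT3G43260 had widely spread Col-0 libraries (74.8, 30.1 and 50.7 CPM, against 21.2, 22.0 and 27.3 CPM in dxo1-2), and its fall (-1.14 ± 0.25, adjusted p = 0.00254) was lost with all lines as library size (-0.56, adjusted p = 0.0569). The remaining locus, AT1G42120, is a tRNA gene whose reads may come from other copies. Apart from AT3G43260, these falls stayed past the test in all 17 alternative fits.

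At higher counts the clearest falls were those with the smallest adjusted p on their chromosomes. AT2G07240, a protein-coding locus, stood at 198, 227 and 219 CPM in Col-0 and 97.7, 107 and 111 CPM in dxo1-2, 2.04-fold lower (adjusted p = 9.05e-07). The pseudogene AT3G30250 fell from 95.3, 81.1 and 105 CPM to 40.7, 41.2 and 48.9 CPM (2.15-fold lower, adjusted p = 9.89e-06). In these loci the highest dxo1-2 library was well below the lowest Col-0 library.

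Protein-coding loci as a class had lower medians than pseudogenes. With TMM 68 of 180 protein-coding loci (37.8%) were lower and 10 higher (median log2 fold change -0.23), a share of lower loci near the 35.8% of all tested loci with at least 50 counts. Of 1022 pseudogenes 247 (24.2%) were lower and 103 higher (median -0.086). The protein-coding median lay 0.15 below that of pseudogenes, and between 0.13 and 0.17 below over 17 alternative fits. A change of scaling cancels in this difference. Both medians were positive with library totals (0.11 and 0.25) and with all lines (0.34 and 0.49). Pseudogenes had 9.02, 9.77 and 9.33 counts per protein-coding count in Col-0 and 10.9, 10.8 and 10.8 in dxo1-2, with no overlap. Protein-coding loci had fewer counts, with a median of 153 against 336 per library. With the set cut into 5 bins by counts, the protein-coding median was the lower one in every bin, from -0.33 against -0.15 in the lowest to -0.30 against -0.041 in the highest, where 15 loci were protein-coding. It was the lower one on each chromosome too, by most on chromosome 5 (-0.39 against -0.093) and by least on chromosome 4 (-0.036 against 0.023).

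Of the 1242 loci 14 carry a gene symbol, and these are named here as a group chosen after their values were seen. With TMM 12 of them fell and 0 rose, with a median log2 fold change of -0.53, where 23.0% of all tested loci and 35.8% of those with at least 50 counts were lower. Since the group was picked with its values known, nothing is read from that count. AGL36 (AT5G26650), a MADS-box gene known for its imprinted expression in endosperm, stood at 392, 361 and 381 CPM in Col-0 and 263, 297 and 275 CPM in dxo1-2 (-0.44 ± 0.071, adjusted p = 0.000320). AGL90 (AT5G27960), another MADS-box gene, fell from 153, 131 and 130 CPM to 97.2, 107 and 106 CPM. SULTR1;1 (AT4G08620), a high-affinity sulfate transporter gene of roots, fell from 198, 172 and 162 CPM to 136, 151 and 129 CPM (-0.36 ± 0.090, adjusted p = 0.00603). At each of these 3 genes all dxo1-2 libraries lay below all Col-0 libraries, and the gap was narrowest at SULTR1;1.

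The other named falls ranged from -1.40 to -0.47 on the log2 scale. ARF23 (AT1G43950), of the auxin response factor family, stood at 218, 212 and 207 CPM in Col-0 and 146, 141 and 151 CPM in dxo1-2 (-0.54 ± 0.068, adjusted p = 4.9e-05). CYP79A4P (AT5G35920), a cytochrome P450 of the CYP79 family, fell from 223, 193 and 248 CPM to 118, 124 and 119 CPM (-0.88 ± 0.089, adjusted p = 7.85e-06). MEE38 (AT3G43160), named from a screen for embryo arrest, fell from 470 ± 13.5 to 325 ± 28.7 CPM, and SUC8 (AT2G14670), of the sucrose transporter family, from 129 ± 11.3 to 87.7 ± 7.64 CPM (SD, n = 3 each). SRP2 (AT2G14540), a serpin gene, and DPBF2 had the largest changes of the 14 (-0.99 and -1.40). PUM15 (AT4G08560), of the Pumilio family of RNA-binding proteins, UNE4 (AT2G12940) and PRK2A (AT2G07040), a receptor-like kinase gene of pollen, fell with log2 fold changes of -0.53, -0.57 and -0.47. The extensin gene EXT13 (AT5G35190) and the MADS-box pseudogene AGL88 (AT2G11990) overlapped between genotypes and did not pass (0.19 and -0.25). ARF23 turned to 0.036 with all lines. With library totals 3 of the 14 were lower and 1 was higher, and with all lines 2 were lower and 2 higher. Without dxo1-2 replicate 3 the lower ones numbered 11. These are bulk values of loci without RNA-seq counts, and none of the roles named was measured here.

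Genes of the silencing machinery carried almost no small RNA, and no call was made on them. Of 36 listed genes of RNA-directed DNA methylation and heterochromatin 5 had enough small RNA counts to be tested, and 0 were higher or lower in edgeR. At an unadjusted p under 0.05 there was 1, the DNA methyltransferase gene CMT2, from 6, 4 and 0 Col-0 reads to 16, 17 and 13 dxo1-2 reads (log2 fold change 1.503 ± 0.594, adjusted p = 0.0517). CMT2 met the expression filter through its dxo1-2 libraries alone, where it is higher, so nothing is read from its rise. CMT2 passed with RLE scaling, limma-voom, library totals, all lines, no count filter and without Col-0 replicate 1 (adjusted p = 0.00625 to 0.0495). It did not pass in DESeq2 (0.100). ROS1, a DNA demethylase gene, was lower without Col-0 replicate 2 alone (-1.03, adjusted p = 0.0436). All 36 had RNA-seq counts in all 3 dxo1-2 libraries. Among the genes that make the small RNAs, NRPD1, for the largest subunit of RNA polymerase IV, stood at 8.68 ± 1.31 CPM. RDR2 stood at 6.89 ± 0.451 CPM and DCL3 at 6.45 ± 0.673 CPM. AGO4, which carries the small RNAs, stood at 39.8 ± 1.87 CPM (SD, n = 3 each). Of the germline-associated AGO9 there was 0.0941 ± 0.0384 CPM. CPM are not divided by gene length, so these levels are not compared between genes.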

How the data were processed

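The deposited values were raw counts per locus, 1 table per library with 37184 loci and 5 summary lines. The build TAIR10 and the tools Bowtie, HISAT2, HTSeq, bedtools and DESeq2 are named, per the submitters' processing notes, without roles, versions or settings. The placing of small RNA reads with several matches is not stated there. Summary lines stayed out of tests and, except in the alternative with all lines, out of library sizes.

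Small RNA counts were tested across all loci with edgeR 4.0.16 (R 4.3.3), quasi-likelihood, TMM scaling, the default expression filter (11534 loci kept), genotype as the only term and Benjamini-Hochberg adjustment at 0.05, two-sided. Fitted log2 fold changes use a prior count of 0.125, and the SE is the size of that change divided by the square root of F. Alternatives used limma 3.58.1 (voom), DESeq2 1.42.0, other scalings, filters, thinned counts, a replicate block, the rule's thresholds and each library left out. Those on arm loci, class and chromosome 4 were added after seeing the data. On simulated data of 11534 loci made for this comparison, the test called 59% of 100 loci changed by a log2 of 1, 96% of 100 changed by a log2 of 2 and 0.0353% of 11334 unchanged ones. The simulation gave all loci a common dispersion and changed few of them, whereas 49.8% of tested loci were called in the data. Its shares cover loci of all count levels and do not describe the silent pericentromeric loci.

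Loci named were the 2 with most CPM per chromosome, the 6 largest called rises and falls without overlap, the smallest adjusted p per chromosome and direction, those at the threshold, and those with a symbol. Symbols, classes and overlaps came from a RefSeq table of TAIR10.1, which matched 36899 identifiers and all 1242 loci described. Loci and lists were chosen with earlier results of these data known. Intervals and limits cover counting error only.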

Additional observations from a re-analysis of the deposited data

How the results depend on the processing

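Among the fits, RLE scaling, TMM without rRNA and tRNA genes, both count filters, limma-voom, DESeq2 and thinned counts kept the counts of all loci called within 1.5 times of those reported, with DESeq2 giving 12 higher loci on chromosome 1. With library totals alone the loci higher and lower numbered 474 and 38, and on chromosomes 1 to 5 the higher ones numbered 104, 159, 74, 81 and 56 and the lower ones 2, 16, 11, 3 and 6. The medians turned to 0.23 in all and to 0.29, 0.21, 0.18, 0.33 and 0.21 by chromosome. With all lines as library size the numbers were 912 and 18, or 186, 319, 160, 135 and 112 higher and 1, 9, 5, 0 and 3 lower, with medians of 0.47 in all and 0.52, 0.45, 0.42, 0.56 and 0.45. With TMM from protein-coding genes there were 35 higher and 545 lower (4, 6, 6, 8 and 11 higher, 85, 219, 113, 57 and 71 lower) and a median of -0.25. Of 446 calls, 323 were also made by DESeq2 in the same direction, 155 with library totals and 135 with all lines.

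Raising the rule's threshold leaves fewer loci to count. At 500 mean counts 54 of 412 loci were higher and 119 lower (13, 9, 9, 16 and 7 higher, 17, 47, 23, 16 and 16 lower by chromosome), with a median of -0.060, and at 200 mean counts 42 loci of chromosome 3 were lower. Allowing up to 3 RNA-seq counts or leaving out loci that share counts moved no count of calls by over 1.5 times.

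Leaving out 1 library at a time gave 78 to 100 higher and 229 to 433 lower loci and a median of -0.15 to -0.095. The ranges by chromosome were 9 to 16, 16 to 20, 12 to 19, 24 to 29 and 14 to 17 higher, and 28 to 59, 91 to 183, 49 to 89, 22 to 44 and 37 to 58 lower. The difference in share of counts on loci ranged from 1.87 to 2.71 percentage points. Its value of 2.34 was 1.16 with all lines and 0.955 without rRNA and tRNA genes as the total. Of the silencing genes 0 to 1 were higher and 0 to 1 lower when 1 library was left out, and 1 was higher with RLE scaling, limma-voom, library totals, all lines and no count filter.

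Same-numbered libraries deviated from their group means with correlations of 0.111, -0.0950 and -0.0349 over tested loci, so the numbers were not taken as pairs. With the replicate block 116 loci were higher and 330 lower, and 424 calls were shared. Of the loci named singly, AT3G43730 (adjusted p = 0.0524) no longer passed in that fit and AT2G07150 (0.0476) did.

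For 29 loci named singly, 450 of the values under the alternatives kept direction and side of the threshold and 17 changed direction. With library totals and with all lines the log2 fold change was 0.25 and 0.48 for AT1G43740, 0.26 and 0.50 for AT1G43750, 0.14 and 0.38 for AT2G07150, 0.22 and 0.45 for AT2G06470, 0.14 and 0.38 for AT3G43730, 0.19 and 0.42 for AT4G03840, 0.31 and 0.55 for AT5G27190 and 0.23 and 0.47 for AT5G28760. For ARF23 (AT1G43950) it was 0.036 with all lines. The number of libraries and counts near the threshold limit what small changes can be seen.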

Other observations

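Of the silent pericentromeric loci 6 are annotated as non-coding RNA genes, a group picked after its values were seen. The long non-coding RNA gene AT4G06800, which overlaps another locus, stood at 119, 92.8 and 84.9 CPM in Col-0 and 59.0, 49.0 and 54.1 CPM in dxo1-2 (log2 fold change -0.87 ± 0.12, edgeR adjusted p = 0.000130), and this fall was lost with all lines as library size (-0.29, adjusted p = 0.0582). AT4G05740 fell from 250, 237 and 212 CPM to 180, 160 and 161 CPM (-0.48 ± 0.081, adjusted p = 0.000431), while AT2G07890 overlapped between genotypes. The tRNA gene AT1G42120 fell from 48.9, 46.0 and 53.9 CPM to 17.6, 24.6 and 26.1 CPM (-1.13 ± 0.15, adjusted p = 7.34e-05). The small nucleolar RNA genes AT2G08370 and AT2G08390 did not pass (0.37 ± 0.23 and 0.36 ± 0.22, adjusted p = 0.198 and 0.197), and their libraries overlapped. Both passed without Col-0 replicate 3 (0.63 and 0.55, adjusted p = 0.0242 and 0.0429), and AT2G08390 passed without a count filter (0.0239). Of the 6, 2 rose and 2 fell under library totals, and 3 rose and 1 fell when all lines were counted.

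Pericentromeric loci with at least 1 RNA-seq count and the same small RNA threshold numbered 284. With TMM 39 of them were higher and 113 lower (53.5% called), near the 51.0% of all tested loci with at least 50 counts, with a median log2 fold change of -0.21. Past 2-fold, 19 rose and 15 fell, or 12.0% of them. As a share of counts on loci they held 4.00% ± 0.244 in Col-0 and 3.97% ± 0.252 in dxo1-2 (SD, n = 3 each), with overlap, and 5.70% ± 0.138 and 5.01% ± 0.0875 without rRNA and tRNA genes, with no overlap.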
